A study of Mus musculus with 6 samples.

Results

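Transcripts of 5 genes that belong to red blood cells were followed through RNA-seq of mouse heart: the adult alpha-globin genes Hba-a1 and Hba-a2, the adult beta-globin genes Hbb-bs and Hbb-bt, and Alas2, the red cell enzyme that starts haem synthesis. They were chosen by name and make up 5 of the 49585 genes in the deposited table. The hearts came from 2 groups of male mice aged 8 or 9 weeks, with 3 libraries in each. The lunar gravity libraries (LG1 to LG3) came from mice held at 0.167 g aboard the International Space Station, where a centrifuge with a radius of 15 cm spun at 31 rpm. The ground control libraries (GC1 to GC3) came from C57BL/6J mice at 1 g, of which the protocols give 6 per mission. No strain is named for the lunar gravity mice and no mission for any library. The labels also leave unsaid whether the 3 libraries of a group came from 3 different mice, so the tests measure the spread between libraries, part of which may be technical. No group flown at 1 g was analysed here, so lunar gravity and all else that differed between station and ground cannot be told apart. Whether blood was flushed from the hearts is not given in the sources used here. RNA was extracted from powdered tissue with ISOGEN II, depleted of ribosomal RNA from about 500 ng, and sequenced on an Illumina NextSeq 500.

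An adult haemoglobin molecule joins alpha chains and beta chains, each holding a haem group with the iron that carries oxygen. The chains are made in red cell precursors of the marrow and spleen under erythroid factors such as Gata1 and Klf1, and the precursors make their haem through Alas2, while other cells use its relative Alas1. A mature mouse red cell has no nucleus, but the youngest circulating red cells still carry leftover globin and Alas2 RNA, so that globin RNA in a solid tissue is commonly read as a sign of blood in its vessels. In bulk tissue, fewer cells of a type and less RNA per cell cannot be told apart.

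Total counts, summed over all genes, were 7095862 to 8271553 in the lunar gravity libraries and 6461213 to 7209653 in the ground control libraries. Cardiomyocyte transcripts were abundant in all libraries: all 12 genes of a cardiomyocyte list were tested, and their summed level was 82602 to 90991 CPM in lunar gravity and 109010 to 110600 CPM in ground controls. CPM is the count scaled to a common library size by TMM, a method that aligns libraries on the bulk of their genes. The 4 adult globins took 0.0571% to 0.0966% of the counts in lunar gravity and 0.0570% to 0.0843% in ground controls.

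The globin and Alas2 transcripts did not differ between the groups by more than the spread between libraries, but that spread was wide. The summed level of the 4 globins was 590.2 CPM in LG1, 573 in LG2 and 959 in LG3, against 853 in GC1, 843 in GC2 and 583 in GC3. The libraries thus fell into a low set (LG1, LG2 and GC3) and a high set (LG3, GC1 and GC2), each holding libraries of both groups. The same 3 libraries were the high ones for each of the 5 transcripts taken alone.

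The alpha-globin genes sit next to each other on chromosome 11 and are near copies. In GRCm38 (mm10), Hba-a1 (ENSMUSG00000069919) lies at chr11:32283511-32284465 and Hba-a2 (ENSMUSG00000069917) at chr11:32296489-32297298, both on the plus strand. Their coding sequences, from the GENCODE M21 transcripts, are 429 bases long and differ at 1 base, C381T, the third base of codon 127, with positions counted from the first base of the start codon and the base of Hba-a1 given first. Bases 341 to 421 of both are shown because a read from this stretch can be told apart only if it covers that position, which is in capitals.
Hba-a1: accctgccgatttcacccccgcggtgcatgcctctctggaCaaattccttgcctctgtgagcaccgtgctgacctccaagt
Hba-a2: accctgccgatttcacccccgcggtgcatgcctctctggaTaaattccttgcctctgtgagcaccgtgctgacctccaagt

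Most exon reads of the alpha pair could not be placed uniquely. Of all 50-base windows in the transcript of Hba-a2, 13.1% occurred in no other gene's transcript, and of those in Hba-a1, 32.5%. For Hba-a1 the unique exon reads numbered 331, 336 and 625 in LG1 to LG3 and 403, 444 and 313 in GC1 to GC3, out of 1183, 1271 and 2195 total exon reads in LG1 to LG3 and 1512, 1654 and 1101 in GC1 to GC3. The unique share of Hba-a1 was therefore 26.4% to 28.5%. For Hba-a2 the unique exon reads numbered 264, 231 and 422 in LG1 to LG3 and 317, 330 and 229 in GC1 to GC3, out of 3533, 2955 and 5172 total exon reads in LG1 to LG3 and 3721, 4332 and 2910 in GC1 to GC3. The unique share of Hba-a2 was 7.47% to 8.52%, against 77.7% to 78.7% of exon reads over all genes of a library.

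The ratio of the 2 alpha genes depended on the column of reads. Per kilobase of exon, unique reads of Hba-a2 over those of Hba-a1 gave ratios of 0.971, 0.837 and 0.822 in LG1 to LG3 and 0.958, 0.905 and 0.891 in GC1 to GC3, so Hba-a1 was the higher in all 6 libraries. This measure divides by all exon bases, although a smaller share of windows was unique in Hba-a2 than in Hba-a1 (13.1% against 32.5%). It therefore counts Hba-a2 too low beside Hba-a1 and does not show which gene led. In the deposited RPKM, which counts all exon reads per kilobase and for a common depth, the ratios were 3.64, 2.83 and 2.87 in LG1 to LG3 and 3.00, 3.19 and 3.22 in GC1 to GC3, so Hba-a2 was the higher in all 6. Both ratios had overlapping groups. How shared reads were split between the 2 alpha genes is not given in the sources used here. As single genes they are thus uncertain, and their sum is the safer value.

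**Figure D1:**
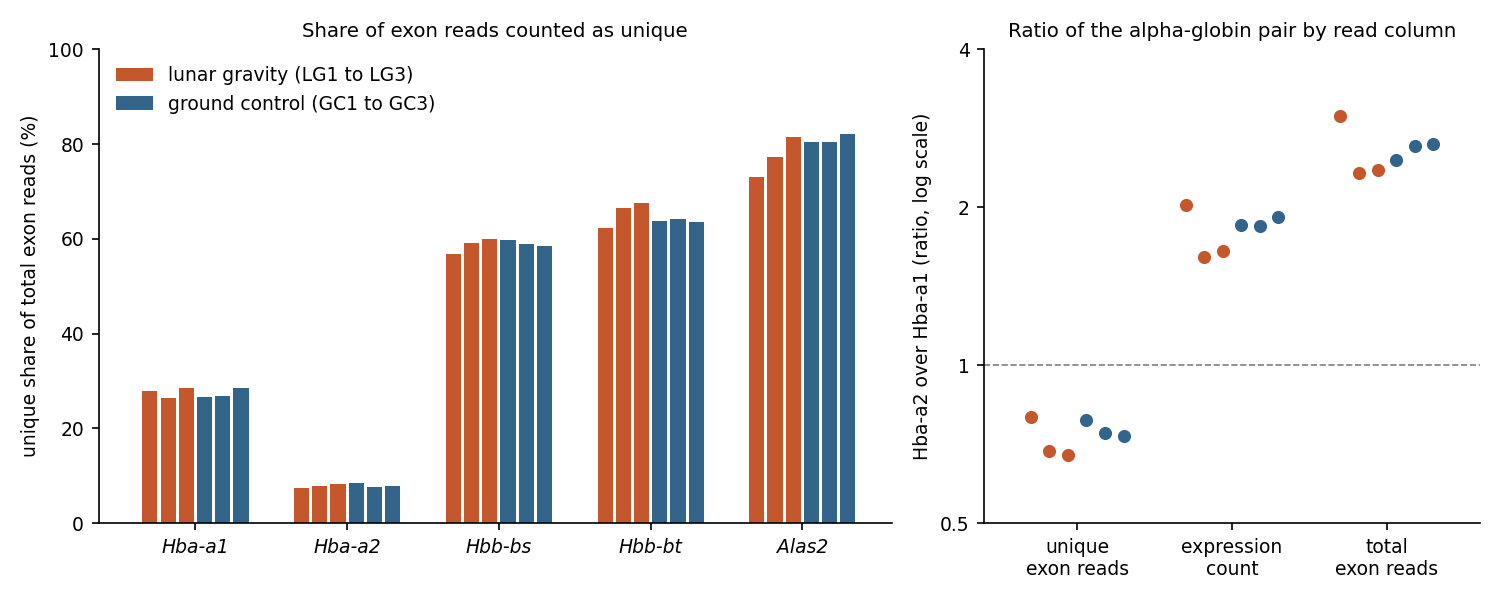
The left panel plots, for each transcript and each library (3 lunar gravity, then 3 ground control), the unique share of total exon reads in percent; the right panel plots Hba-a2 over Hba-a1 on a log axis in 3 read columns, before any division by length. The unique share was lowest for Hba-a2 (7.47% to 8.52%) and highest for Alas2 (73.0% to 82.2%), and the alpha ratio lay between 0.675 and 0.798 in unique reads and between 2.32 and 2.99 in total exon reads.

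The deposited expression value, used for all tests, adds the multi-mapped reads over exon junctions to the unique exon reads. On this count Hba-a1 had 586, 629 and 1109 reads in LG1 to LG3, against 734, 836 and 523 in GC1 to GC3. Scaled, these were 72.7, 88.9 and 133 CPM in LG1 to LG3 and 115, 118 and 76.6 CPM in GC1 to GC3. LG3 was the highest library and LG1 the lowest, both from lunar gravity, so that the ground controls lay inside the range of the other group. The means were 98.2 ± 31.3 CPM in lunar gravity and 103 ± 23.0 CPM in ground controls (SD, n = 3 each).

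Hba-a2 had 1184, 1012 and 1832 reads in LG1 to LG3, against 1355, 1540 and 1001 in GC1 to GC3. These came to 147, 143 and 219.9 CPM in LG1 to LG3 and 212, 217 and 147 CPM in GC1 to GC3, with means of 169.9 ± 43.3 CPM in lunar gravity and 192 ± 39.4 CPM in ground controls (SD, n = 3 each). LG3 stood with GC1 and GC2, and GC3 stood with LG1 and LG2. The alpha pair as a sum reached 219.6, 232 and 353 CPM in LG1 to LG3 and 327, 335 and 223 CPM in GC1 to GC3.

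The beta-globin genes repeat this arrangement on chromosome 7. Hbb-bs (ENSMUSG00000052305) lies at chr7:103826534-103828096 and Hbb-bt (ENSMUSG00000073940) at chr7:103812524-103813996, both on the minus strand, and they are the adult beta genes of the Hbb-s haplotype that C57BL/6 mice carry. Their coding sequences are 444 bases long and also differ at 1 base, C417T, the third base of codon 139, with the base of Hbb-bs first. Bases 377 to 444 are shown for the same reason as above, with that base in capitals.
Hbb-bs: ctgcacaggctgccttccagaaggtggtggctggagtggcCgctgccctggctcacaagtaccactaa
Hbb-bt: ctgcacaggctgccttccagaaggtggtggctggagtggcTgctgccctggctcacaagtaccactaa

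Reads of the beta pair were told apart more often than those of the alpha pair. Windows of 50 bases found in no other gene's transcript made up 34.2% of Hbb-bs and 41.7% of Hbb-bt. Unique exon reads of Hbb-bs numbered 2092, 1770 and 3534 in LG1 to LG3 and 2333, 2531 and 1748 in GC1 to GC3, out of 3679, 2990 and 5895 total exon reads in LG1 to LG3 and 3911, 4291 and 2987 in GC1 to GC3. That is a unique share of 56.9% to 59.9%. Unique exon reads of Hbb-bt numbered 326, 253 and 584 in LG1 to LG3 and 449, 417 and 266 in GC1 to GC3, out of 523, 380 and 865 total exon reads in LG1 to LG3 and 704, 649 and 418 in GC1 to GC3. Its unique share was 62.3% to 67.5%.

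Hbb-bs had the highest count of the 5 transcripts in every library, with 2607, 2120 and 4358 reads in LG1 to LG3 and 2827, 3102 and 2138 in GC1 to GC3. Its levels were 323, 299.7 and 523 CPM in LG1 to LG3 and 443, 437 and 313 CPM in GC1 to GC3. Again LG3 was the highest and LG2 the lowest, and the means were 382 ± 123 CPM in lunar gravity and 398 ± 73.3 CPM in ground controls (SD, n = 3 each).

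Hbb-bt, the minor adult beta gene, had 380, 290 and 691 reads in LG1 to LG3 and 531, 499 and 320 in GC1 to GC3. These were 47.1, 41.00 and 82.9 CPM in LG1 to LG3 and 83.1, 70.4 and 46.9 CPM in GC1 to GC3. For this gene alone a ground control library, GC1, was the highest, by a small margin over LG3. The means were 57.0 ± 22.6 CPM in lunar gravity and 66.8 ± 18.4 CPM in ground controls (SD, n = 3 each). Per kilobase, Hbb-bs exceeded Hbb-bt in every library, by 5.54 to 6.40 times in lunar gravity and 4.76 to 6.02 times in ground controls in unique reads, and by 6.24 to 7.20 times in lunar gravity and 5.09 to 6.54 times in ground controls in RPKM. Unlike the alpha pair, the beta pair kept its order in both columns.

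Alas2 is a single gene on chromosome X with no near copy. It lies at chrX:150547375-150570638 on the plus strand (ENSMUSG00000025270), and all of its transcript's 50-base windows were absent from the transcripts of other genes. Unique exon reads numbered 111, 92 and 219 in LG1 to LG3 and 123, 180 and 111 in GC1 to GC3, out of 152, 119 and 269 total exon reads in LG1 to LG3 and 153, 224 and 135 in GC1 to GC3. The unique share, 73.0% to 82.2%, lay around that of all genes. The rest, 24 to 50 exon reads a library, were given as multi-mapped although no other transcript held its windows, and neither the read length nor the aligner is given in the sources used here.

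The Alas2 count was 113, 93 and 223 in LG1 to LG3 and 125, 182 and 113 in GC1 to GC3. The levels were 14.02, 13.1 and 26.8 CPM in LG1 to LG3 and 19.6, 25.7 and 16.6 CPM in GC1 to GC3, with means of 18.0 ± 7.62 CPM in lunar gravity and 20.6 ± 4.64 CPM in ground controls (SD, n = 3 each). LG3 was the highest and LG2 the lowest library, as for Hba-a2 and Hbb-bs. Alas2 thus moved with the globins from library to library, although it lies on another chromosome and shares no reads with them.

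**Figure D2:**
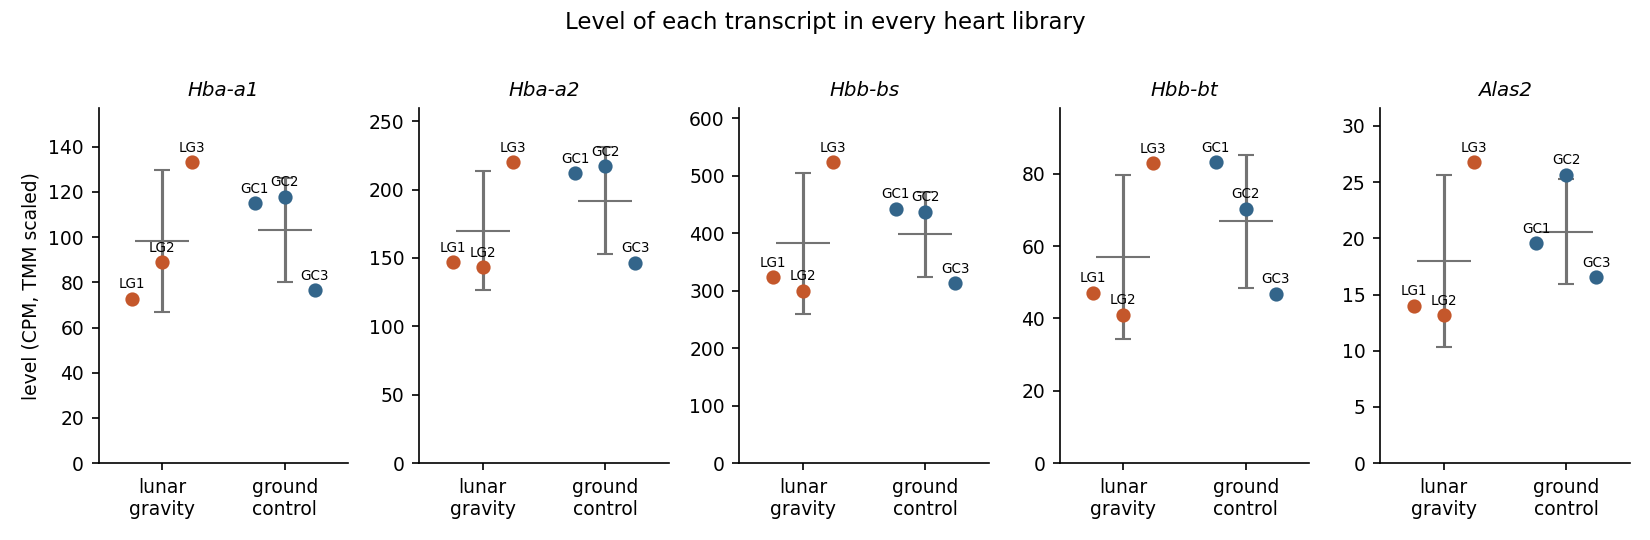
Each panel plots 1 transcript in CPM, with a point per library, lunar gravity left of ground control; the horizontal line is the group mean and the bar its SD (n = 3). In all 5 panels the highest points are LG3, GC1 and GC2 and the lowest are LG1, LG2 and GC3, so that the groups overlap.

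Reads over exon junctions, which come from spliced RNA, were found for all 5 transcripts, with 82 to 1460 in lunar gravity and 81 to 1252 in ground controls for single globin genes, and 46 to 88 in lunar gravity and 46 to 74 in ground controls for Alas2. These junction reads include multi-mapped ones. Total intron reads, which also include them, were few beside them for single globin genes, at 0 to 47 in lunar gravity and 0 to 42 in ground controls. Unique intron reads of Hbb-bs numbered 32, 32 and 46 in LG1 to LG3 and 23, 34 and 22 in GC1 to GC3, and those of Hba-a1 numbered 20, 14 and 19 in LG1 to LG3 and 19, 28 and 16 in GC1 to GC3. For Hba-a1 these were not few beside its unique junction reads, 27, 36 and 66 in LG1 to LG3 and 59, 44 and 26 in GC1 to GC3. Unique intron reads of Hba-a2 numbered 2, 8 and 13 in LG1 to LG3 and 10, 12 and 12 in GC1 to GC3. Hbb-bt and Alas2 had 0 unique intron reads in every library, where a count of 0 allows up to 3. Alas2 did have intron reads that were not unique, 81, 71 and 83 in LG1 to LG3 and 84, 180 and 181 in GC1 to GC3, and these did not follow its exon reads.

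In RPKM, which adjusts for length, the order of the 5 transcripts was the same in all 6 libraries: Hba-a2, Hbb-bs, Hba-a1, Hbb-bt and then Alas2. Hba-a2 had 327, 310.2 and 458 RPKM in LG1 to LG3 and 399.9, 423 and 285 in GC1 to GC3, while Hbb-bs had 296, 273 and 454 in LG1 to LG3 and 365, 364 and 254 in GC1 to GC3. These 2 neighbours in the order differed by less than the spread of either between libraries, and Hbb-bs led in unique reads per kilobase. The order counts multi-mapped reads. In unique reads per kilobase Hba-a1 was above Hba-a2 in all 6 libraries, and Hbb-bt was above Hba-a1 in LG1, LG3, GC1 and GC2. That measure favours genes with more sequence of their own. Windows found in no other gene's transcript made up 41.7% of Hbb-bt, 34.2% of Hbb-bs, 32.5% of Hba-a1 and 13.1% of Hba-a2. Unique reads per kilobase therefore do not settle the order. Alas2, at the end, had 3.90, 3.47 and 6.62 RPKM in LG1 to LG3 and 4.56, 6.07 and 3.67 in GC1 to GC3.

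The proportions between the transcripts were steadier than their levels. The beta pair over the alpha pair was 1.69, 1.47 and 1.72 in LG1 to LG3 and 1.61, 1.52 and 1.61 in GC1 to GC3, in counts. The log2 ratio differed by 0.038 between lunar gravity and ground control (exact permutation test, two-sided, p = 0.6). This ratio too is set by how shared reads are counted, being 3.57 to 4.06 in unique exon reads and 0.797 to 0.918 in total exon reads, so it measures libraries against each other and not chains in the cell. The 4 globins together had 42.1, 43.6 and 35.8 counts per count of Alas2 in LG1 to LG3, and 43.6, 32.8 and 35.2 in GC1 to GC3. That log2 ratio differed by 0.13 (exact permutation test, two-sided, p = 0.5). With 3 libraries against 3, the smallest p that this test can give is 0.1, and over the 3 such tests made here each adjusted p was 0.9.

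The question put by the design is whether the hearts held at lunar gravity carried more or less of this RNA. Of 12258 genes tested with edgeR's quasi-likelihood test, 462 changed at an adjusted p under 0.05, which is 3.77%, and of the 5 red cell transcripts, all of them tested, 0 did. None had an unadjusted p under 0.05, and DESeq2 and limma voom also called 0, where they called 2.33% and 3.3% of all genes. The log2 fold change of lunar gravity over ground control was -0.066 for Hba-a1 (SE 0.32, edgeR adjusted p = 0.960), -0.17 for Hba-a2 (SE 0.26, adjusted p = 0.841), -0.056 for Hbb-bs (SE 0.30, adjusted p = 0.965), -0.22 for Hbb-bt (SE 0.39, adjusted p = 0.864) and -0.19 for Alas2 (SE 0.36, adjusted p = 0.873). The median over all tested genes was 0.00067. As sums, the alpha pair gave -0.14 (SE 0.28) and the beta pair -0.079 (SE 0.31), and all 4 globins together gave a difference in mean log2 CPM of -0.12 (exact permutation test, two-sided, p = 0.9).

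These intervals leave room for sizeable differences. The 95% interval for the fold of lunar gravity over ground control was 0.536 to 1.54 for the alpha pair, 0.531 to 1.69 for the beta pair and 0.462 to 1.67 for Alas2. Differences within those limits are not excluded by these libraries. The groups overlapped for all 5 transcripts, while 20.6% of all tested genes had groups that did not overlap.

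LG3 weighed most on these values. Without it, the log2 fold change of lunar gravity over ground control was -0.60 for Alas2 (SE 0.17, edgeR adjusted p = 0.054), -0.35 for Hba-a1 and for Hbb-bs, -0.40 for Hba-a2 and -0.59 for Hbb-bt, with 0 of 5 called. The sign turned to positive for Hba-a1 and Hbb-bs without GC1, without GC2 or without LG1, for Hbb-bs also without LG2, and for Alas2 without GC2, with values of at most 0.11. The direction of these differences is therefore not settled by these libraries. Over all genes, 219 changed without GC2 and 232 without LG2.

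**Figure D3:**
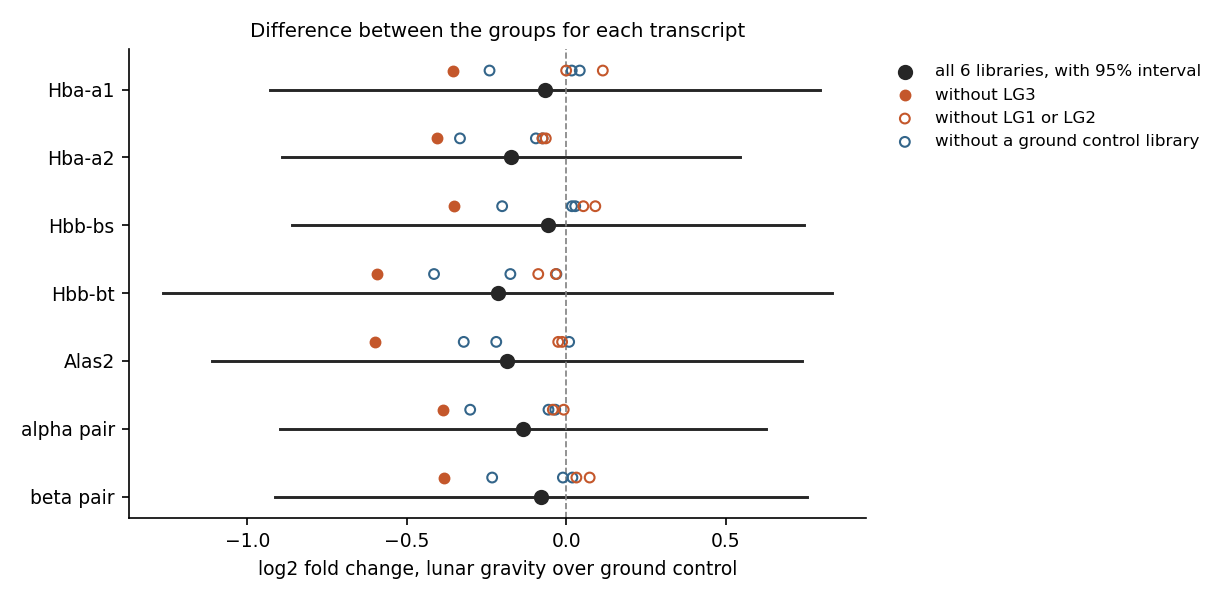
Points plot the log2 fold change of lunar gravity over ground control for each transcript and for the alpha and beta pairs, with black lines for the 95% interval of the fit to all 6 libraries and coloured points above for fits with 1 library left out. Every interval includes 0, and the values without LG3 lie farthest to the left, at -0.60 for Alas2.

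The table's header places GC3 among the columns of the flight group (PG), against the ground control label of that library. The authors' deposited table, which compares 4 PG columns with 2 GC columns, gives signed fold changes of -1.25 for Hba-a1, -1.31 for Hba-a2, -1.20 for Hbb-bs, -1.40 for Hbb-bt and -1.28 for Alas2, where a negative sign means lower in PG. In the authors' deposited table their unadjusted p-values were 0.0957, 0.0144, 0.147, 0.0279 and 0.156, and each adjusted p was 1. Since GC3 was one of the low libraries for these transcripts, counting it with lunar gravity leaves the high GC1 and GC2 as the only controls. In an edgeR fit with that grouping, the log2 fold changes lay between -0.48 and -0.27 and 0 of 5 were called. That fit called only 32 genes in all, so the 0 says little about these 5.

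The spread of red cell transcripts within a group was among the widest in the table. The coefficient of variation of CPM was 25.5% to 42.4% over the 5 transcripts in lunar gravity and 18.4% to 27.5% in ground controls, against medians of 8.55% in lunar gravity and 8.67% in ground controls over all tested genes. Among the 8509 tested genes with at least 0.5 times the mean CPM of Alas2, 99.1% to 99.9% had a smaller coefficient in lunar gravity and 94.6% to 99.1% in ground controls. In the edgeR fit, 99.4% to 99.8% of tested genes had a dispersion no higher than theirs. For the 4 globins summed, the coefficient was 30.8% in lunar gravity and 20.1% in ground controls, while counting error alone gives 1.12% to 1.58% in single libraries.

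If the globin reads stand for residual blood, other blood transcripts can be set beside them library by library. RNA of the red cell membrane was scarce. Slc4a1, the anion exchanger band 3 of the red cell membrane, had 10, 2 and 14 counts in LG1 to LG3 and 13, 20 and 9 in GC1 to GC3. Kel, a red cell surface peptidase, was at 0 in all libraries, and Epb42, Rhag, Trim58 and Car1 had at most 2 counts in any. These genes were named after their values were seen.

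Of a list of 32 genes for the red cell membrane, transport and maturation, 23 were tested and 0 changed, with 6 at an unadjusted p under 0.05, a level that 15.6% of all tested genes reached, and a median log2 fold change of -0.059. Its summed level was 1277 to 1282 CPM in lunar gravity and 1269 to 1297 CPM in ground controls, and the high and low sets did not show in that sum, whose most abundant members are genes that other cells use too. Single members did show them: Slc4a1, Bpgm and Ube2l6, 3 of the 23 tested, were higher in each of LG3, GC1 and GC2 than in any of LG1, LG2 and GC3, as were 5.29% of all tested genes, a count made after the values were seen. In that count the split was not confined to red cell genes. Mb of the cardiomyocyte list, Nrgn of the platelet list and Vcan of the monocyte list showed it too. Bpgm, the enzyme that makes the regulator of oxygen release in red cells, had 18.6, 17.5 and 20.5 CPM in LG1 to LG3 and 22.4, 23.97 and 19.04 CPM in GC1 to GC3. Ube2l6, an enzyme of the ubiquitin-like protein ISG15, had 7.32, 6.08 and 8.88 CPM in LG1 to LG3 and 8.45, 11.8 and 6.74 CPM in GC1 to GC3. Sptb, the beta spectrin of the membrane skeleton, which striated muscle also makes, had 363 ± 32.3 CPM in lunar gravity and 316 ± 11.7 CPM in ground controls (SD, n = 3 each; log2 fold change 0.20, edgeR adjusted p = 0.068). Prdx2, a peroxidase abundant in red cells and present in most others, had 216 ± 5.46 CPM in lunar gravity and 220.0 ± 6.34 CPM in ground controls (adjusted p = 0.875). Tfrc, the transferrin receptor that takes up iron, was singled out after its values were seen: it had 41.3, 41.7 and 87.7 CPM in LG1 to LG3 and 92.4, 92.6 and 92.6 CPM in GC1 to GC3 (log2 fold change -0.69, edgeR adjusted p = 0.476). LG3, the library richest in globin, stood with the ground controls for Tfrc.

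Erythroid regulators were measured unevenly. Gata1 had 1 count over the 6 libraries, in LG1, and Klf1 had at most 2 in any library, while Gfi1b was at 0 in all. Tal1, Lmo2 and Bcl11a, which other blood or vessel cells also use, were detected, with 59 to 69 counts of Tal1, 23 to 30 of Lmo2 and 23 to 29 of Bcl11a in lunar gravity, and 36 to 49 counts of Tal1, 26 to 31 of Lmo2 and 28 to 34 of Bcl11a in ground controls. These 6 were named after their values were seen. Of the list of 10 regulators, 5 were tested and 0 changed (median log2 fold change 0.065). The most abundant, Ldb1, an adaptor used in many tissues, had 44.7 ± 2.24 CPM in lunar gravity and 42.8 ± 3.87 CPM in ground controls, and Zfpm1, a partner of GATA factors also in heart, had 12.1 ± 0.341 CPM in lunar gravity and 10.97 ± 1.78 CPM in ground controls (SD, n = 3 each). Of 12 other globin genes, the embryonic Hba-x, Hbb-y and Hbb-bh1 were at 0 in every library, with Hbb-bh0, Hbb-bh2 and Hbq1a. Those at 0 were named after their values were seen. Only 2 of the list were tested and neither changed: Mb, the myoglobin of heart muscle, at 7498 ± 160.0 CPM in lunar gravity and 7634 ± 46.7 CPM in ground controls, and Cygb, cytoglobin, at 50.6 ± 3.74 CPM in lunar gravity and 44.1 ± 6.58 CPM in ground controls (SD, n = 3 each). Hbb-b1 and Hbb-b2, the beta genes of the other mouse haplotype, and Ahsp, the alpha chain's chaperone, were not analysed here.

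Genes beside the alpha cluster were also measured. Of 8 listed neighbours, 5 were tested and 0 changed (median log2 fold change 0.028). Rhbdf1, a rhomboid-like membrane protein, had 29.0, 33.2 and 24.8 CPM in LG1 to LG3 and 28.7, 25.5 and 30.3 CPM in GC1 to GC3, with LG3 the lowest library. Sh3pxd2b, an adaptor of invasive membrane structures, had 22.2, 26.2 and 25.7 CPM in LG1 to LG3 and 26.5, 26.9 and 19.2 CPM in GC1 to GC3.

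Beside Alas2, the haem pathway that all cells share held 2 changed genes. Of 13 enzymes and carriers, all tested, 2 were lower and 0 higher, against 2.21% lower and 1.56% higher over all tested genes, and the median log2 fold change was -0.14. Alas1, the synthase of tissues other than red cells, fell to 163 ± 9.56 CPM in lunar gravity, against 201.2 ± 10.5 CPM in ground controls (SD, n = 3 each; log2 fold change -0.31, SE 0.061, edgeR adjusted p = 0.0039). Its values were 153, 163 and 172 CPM in LG1 to LG3 and 212, 202 and 191 CPM in GC1 to GC3, which do not overlap and do not follow the globin level. Cpox, a later enzyme of the pathway, fell to 48.9 ± 1.73 CPM in lunar gravity, against 59.2 ± 3.45 CPM in ground controls (log2 fold change -0.28, adjusted p = 0.042), a call lost with DESeq2 (adjusted p = 0.18), limma voom and each library left out. Of 10 genes for haem breakdown and haemoglobin clearance, 9 were tested and 0 changed (median log2 fold change -0.14). Lrp1, the receptor that clears haem bound to haemopexin among other ligands, had 511 ± 20.1 CPM in lunar gravity and 577 ± 5.52 CPM in ground controls (adjusted p = 0.055), and Slc48a1, a haem transporter, had 54.9 ± 1.94 CPM in lunar gravity and 57.8 ± 0.811 CPM in ground controls.

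Platelets and white cells are the other cells of blood, and their summed transcripts were set beside the globins. The summed level of 14 platelet genes was 59.4, 48.5 and 53.8 CPM in LG1 to LG3 and 38.0, 52.6 and 46.3 CPM in GC1 to GC3. GC1, among the richest in globin, had the least platelet RNA, and LG1, among the poorest in globin, had the most. Of these genes 9 were tested and 0 changed (median log2 fold change 0.18), and Itgb3, an integrin of platelets and vessel walls, had 8.55 ± 0.982 CPM in lunar gravity and 5.90 ± 1.13 CPM in ground controls (adjusted p = 0.144). Alox12, the platelet lipoxygenase, had 8.35 ± 1.62 CPM in lunar gravity and 7.44 ± 1.72 CPM in ground controls.

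The 18 neutrophil genes summed to 19.6, 13.4 and 19.1 CPM in LG1 to LG3 and 8.30, 13.0 and 10.4 CPM in GC1 to GC3. Lunar gravity was the higher group without overlap, but only by the narrow margin between LG2 and GC2. Groups that did not overlap, in either direction, were found for 20.6% of all tested genes. Of the listed genes 14 had a count. In lunar gravity the largest part came from Lcn2, the iron-binding lipocalin 2, which neutrophils store and which other cells also make. It gave 4.24 CPM of the sum in LG2 and 2.40 CPM in GC2. Without Lcn2 the rest of the sum was higher in GC2 than in LG2, so the groups then overlapped. Its counts were 71, 30 and 60 in LG1 to LG3 and 16, 17 and 17 in GC1 to GC3, and it rose 2.76-fold in lunar gravity (log2 fold change 1.46, edgeR adjusted p = 0.0020). It was the 1 called gene of 4 tested, against 1.56% called higher over all tested genes. Camp, Elane and Mpo, granule genes of immature neutrophils, and the surface marker Ly6g were at 0 in all libraries. Genes of mature neutrophils were detected at low counts. Retnlg, a secreted protein of neutrophils, had 8, 5 and 9 counts in LG1 to LG3 and 2, 0 and 2 in GC1 to GC3, without overlap, and did not pass the filter on low counts. S100a8, which passed it, had 12, 10 and 10 counts in LG1 to LG3 and 3, 13 and 7 in GC1 to GC3. Its partner S100a9, a calcium-binding protein, had 17, 5 and 21 counts in LG1 to LG3 and 2, 7 and 5 in GC1 to GC3 and did not pass it. Others of the list did not share a higher level in lunar gravity. Csf3r and Mmp9, which passed the filter, had log2 fold changes of 0.11 and -0.067 (edgeR adjusted p = 0.93 and 0.95). Cxcr2 and Padi4, which did not pass it, had means of 0.385 and 0.333 CPM in lunar gravity and 0.484 and 0.385 CPM in ground controls. These genes, other than Lcn2, were named after their values were seen. Of 11 blood monocyte genes 3 were tested and 0 changed, with summed levels of 67.5, 91.9 and 91.4 CPM in LG1 to LG3 and 90.6, 94.5 and 78.1 CPM in GC1 to GC3. The most abundant were Vcan, a matrix proteoglycan also made in tissue, at 56.0 ± 12.5 CPM in lunar gravity and 66.6 ± 5.87 CPM in ground controls, and Nr4a1, an early-response factor, at 17.8 ± 3.38 CPM in lunar gravity and 12.02 ± 3.15 CPM in ground controls (SD, n = 3 each).

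B cell genes had 2 of 14 tested and 0 changed, with Ighm, the heavy chain of IgM, at 7.26 ± 0.216 CPM in lunar gravity and 9.35 ± 1.86 CPM in ground controls, and Blk, a B cell kinase, at 1.52 ± 0.568 CPM in lunar gravity and 2.37 ± 0.306 CPM in ground controls (SD, n = 3 each). Of 15 T and NK cell genes 0 passed the filter on low counts, and the best detected, Cd247 and Cd4, had 12 or fewer counts in any library. T and NK cell RNA was thus near the limit of detection here.

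The cells that line and patrol the tissue were measured well and were no guide to the globin level. Of 10 resident macrophage genes all were tested and 0 changed, with summed levels of 271, 222 and 244 CPM in LG1 to LG3 and 263, 264 and 265 CPM in GC1 to GC3. Mrc1, the mannose receptor, had 56.9 ± 4.43 CPM in lunar gravity and 61.3 ± 5.02 CPM in ground controls, and Csf1r, the receptor for the macrophage growth factor, had 59.3 ± 5.88 CPM in lunar gravity and 64.7 ± 4.04 CPM in ground controls (SD, n = 3 each). Of 12 endothelial genes all were tested and 0 changed, with sums of 2104, 1843 and 1823 CPM in LG1 to LG3 and 2032, 1980.3 and 1912 CPM in GC1 to GC3. Kdr, the VEGF receptor of vessels, had 348 ± 34.4 CPM in lunar gravity and 403 ± 23.8 CPM in ground controls (adjusted p = 0.091), and Cdh5, the cadherin of endothelial junctions, had 311 ± 31.9 CPM in lunar gravity and 330.4 ± 9.14 CPM in ground controls.

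**Figure D4:**
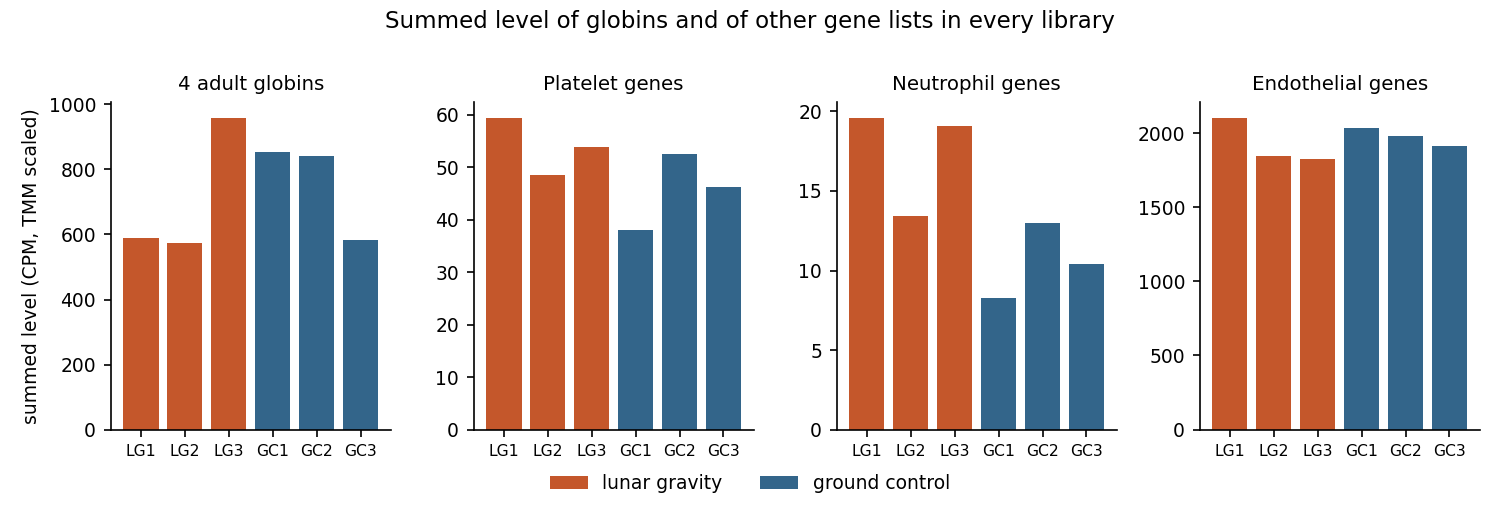
Bars plot the summed CPM in each library, lunar gravity left of ground control, for the 4 adult globins and for lists of 14 platelet, 18 neutrophil and 12 endothelial genes. The globin sum ranges from 573 to 959 CPM, and the platelet sum is lowest in GC1 (38.0 CPM), a library with 853 CPM of globin.

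Of the 12 cardiomyocyte genes, 4 were lower and 1 higher in lunar gravity, against 2.21% lower and 1.56% higher over all tested genes. Ttn, the giant spring of the sarcomere, fell to 25999 ± 1984 CPM, against 39309 ± 389.9 CPM in ground controls (edgeR adjusted p = 1.17e-06), with Ryr2, Myh6 and Actc1 also lower and Pln, a brake on the calcium pump named after its values were seen, higher. Actc1 lost its call without LG3 (adjusted p = 0.069), and with GC3 grouped with lunar gravity 0 of the 8 list genes called here were called. LG1 and LG2, low in globin, and LG3, high in globin, were alike in this, at 26405, 27749 and 23843 CPM of Ttn, against 39470, 38864 and 39592 CPM in GC1 to GC3. No measure of blood volume was used here, and the part of residual blood in the globin level was not tested.

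A search over 11711 genes for the patterns most like the summed globin level, by Pearson's r of log2 CPM over the 6 libraries, ranked Tmbim4 (r = 0.988), Arl6ip1 (0.987), Aamdc (0.985), Cisd2 (0.984), Zfp868 (0.983) and Azi2 (0.983) first. Since the libraries form a high and a low set, r mainly says that a gene separated LG3, GC1 and GC2 from LG1, LG2 and GC3, and it is given as a description. The differences in these genes were small beside those of the globins, with the highest library 1.08 to 1.37 times the lowest. Arl6ip1, a membrane-shaping protein of the endoplasmic reticulum, had 24.7, 25.4 and 32.5 CPM in LG1 to LG3 and 31.8, 30.9 and 24.6 CPM in GC1 to GC3. Alas2 had an r of 0.923 with the globin sum, with 50 genes at or above it, and its highest library was 2.04 times its lowest.

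The promoters of the members are shown to describe their sequence. Whether they bear on the shared movement of the 5 transcripts from library to library was not tested. The sequences are RefSeq's, in GRCm38.p6, and run 120 bases up to the base before RefSeq's annotated start, in the direction of transcription. That start differs from the gene ends given above, so that the Hbb-bs stretch lies inside the deposited gene. The Hba-a2 and Alas2 stretches run past the deposited starts of their genes. They were searched on both strands, over 250 bases, for the GATA factor motif AGATAA, for its variant TGATAA, for the box CACCC that factors such as Klf1 bind, for the box CCAAT that is common upstream of genes, and for the start-site motif TATAAA or its variant CATAAA. The shorter motif TATAA, which lies within TATAAA, was added after the sequences were seen. Matches within the 120 bases are in capitals, and those on the opposite strand are printed as reverse complements (the runs TTATCT and GGGTG). Of the alpha pair Hba-a2 is printed, since the upstream sequences share an identical run of 247 of 250 bases, and of the beta pair Hbb-bs, which has the higher count. The Hba-a2 stretch is chr11:32296372-32296491 on the plus strand, that of Hbb-bs is chr7:103827929-103828048 on the minus strand and that of Alas2 is chrX:150547297-150547416 on the plus strand.
Hba-a2: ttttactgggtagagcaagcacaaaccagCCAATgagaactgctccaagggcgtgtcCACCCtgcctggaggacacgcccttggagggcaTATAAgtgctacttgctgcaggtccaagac
Hbb-bs: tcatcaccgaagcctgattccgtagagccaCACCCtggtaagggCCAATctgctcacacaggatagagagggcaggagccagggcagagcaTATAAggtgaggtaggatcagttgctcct
Alas2: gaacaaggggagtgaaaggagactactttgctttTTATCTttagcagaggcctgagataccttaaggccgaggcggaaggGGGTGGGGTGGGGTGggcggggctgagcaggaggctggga

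The 4 globin promoters each held the box CACCC, the box CCAAT and the motif TATAA in the 250 bases. Alas2 held AGATAA once and the CACCC box 3 times, all on the opposite strand, and the CCAAT box was not among its letters. It also held TATAA at 2 positions and TATAAA once, away from the start. Hbb-bt held TATAAA once. TGATAA was found once upstream of each alpha gene, and AGATAA once upstream of Hbb-bs. In the same 250 bases of all 32851 promoters, CACCC was found in 52.0%, CCAAT in 33.9%, TATAA in 22.8%, AGATAA in 9.99%, TGATAA in 7.94%, TATAAA in 12.4% and CATAAA in 10.8%. The TATAA match began 30 bases before the start in Hba-a2 and 29 bases before it in Hbb-bs. A match describes the letters and does not show that a factor binds there.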

How the data were processed

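Whole-number read counts per gene (expression value, unique and total exon, exon-exon and intron reads) and RPKM were deposited by the authors for 6 heart libraries, per the file headers. The deposited p-values and signed fold changes (a score, negative where the PG columns were lower) come from an EDGE test with tagwise dispersions, per the file headers. The submitters' processing notes give the genome as GRCm38 (mm10). Aligner, counter, annotation release and strand setting: not given in the sources used here. The expression value of each of the 49585 genes was, exactly, its unique exon reads and its multi-mapped exon-exon reads added together. Of the table's 161 columns, 109 were not used. Deposited starts were 1 less than those of GENCODE M21 with the same end in 45128 of 49326 matched genes, so 1 was added.

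Genes were filtered with filterByExpr (minimum count 10), scaled by TMM and put through the robust quasi-likelihood test of edgeR 4.0.16 in R 4.3.3, with group as the only term and Benjamini-Hochberg adjustment over all genes; a gene was called at an adjusted p under 0.05. Standard errors divide the log2 fold change by the root of edgeR's F, and 95% intervals use the t distribution with the fit's degrees of freedom. The alpha and beta pairs were fitted as sums in place of their genes, and the 4-globin sum and the ratios were tested by exact permutation over all 20 arrangements of the libraries. DESeq2 1.42.0 (without independent filtering) and limma 3.58.1 were alternatives. The scripts were tested on simulated data. The members, gene lists and tests were chosen with earlier results of these data known. Of each list the text names up to 4 called genes by p, or else the 2 with the highest mean CPM; others are said to be named after their values were seen. GC3 was grouped by its title. The limit given for a count of 0 covers counting error only.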

Additional observations from a re-analysis of the deposited data

How the results depend on the processing

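None of the 5 red cell transcripts was called under any of the 18 alternatives, which gave 90 member values, of which 8 had the other sign. Values that turned in sign with 1 library left out ran from -0.35 to 0.11 for Hba-a1, from -0.35 to 0.091 for Hbb-bs, from -0.60 to 0.0093 for Alas2, from -0.38 to 0.074 for the beta pair, from -0.36 to 0.0085 for the 4 globins summed and from -0.0034 to 0.11 for the log2 beta to alpha ratio. The count of all changed genes was 765 without a filter, 286 with DESeq2, 32 with GC3 grouped with lunar gravity, and 219 to 463 with 1 library left out. List members called, 8 in all, were 14 without a filter and 0 with GC3 grouped with lunar gravity. Under library totals in place of TMM the sign turned for Prdx2 (0.017), Mb (0.017), Tmbim4 (0.034), Cisd2 (0.019) and Zfp868 (0.011). With GC3 grouped with lunar gravity it turned for Sh3pxd2b (-0.19) and Mrc1 (0.019). With 1 library left out it turned in some fits for Rhbdf1 (-0.063 to 0.14), Sh3pxd2b (-0.11 to 0.12), Tmbim4 (-0.064 to 0.022), Arl6ip1 (-0.21 to 0.0050) and Zfp868 (-0.17 to 0.039). The cause of these turns was not tested.

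The replicate numbers do not pair the libraries: same-numbered libraries had deviations that correlated by 0.0026, -0.054 and 0.048, and not every library correlated best with its own number. With a replicate block, 545 genes were called, 0 of the 5 red cell transcripts among them, 9 list members, and the alpha and beta pairs had log2 fold changes of -0.15 and -0.11. Depth limits genes with few reads, such as Slc4a1 and the lymphocyte markers.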
